A study of Mus musculus with 23 samples.

Results

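Methylation of cytosine at CpG sites in the mouse is written by a small set of enzymes, and 6 genes of that machinery are described here across the making of oocytes in culture and in the animal: Dnmt1, Dnmt3a, Dnmt3b, Dnmt3l, Uhrf1 and Uhrf2. They were chosen by name, as 6 of the 22784 gene rows of the deposited table, and all 6 are among the 14242 genes with at least 1 FPKM (fragments scaled for transcript length and library size) in at least 1 group. The series covers 23 poly(A) RNA samples in 8 groups. The table holds 1 FPKM value per gene and group, so every value below stands without a replicate spread, no p-value can be given, and how many reads a value rests on is unknown. For the same reason no order between neighbouring levels could be tested.

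The culture groups came from the cross C57BL/6 X 129. They were female embryonic stem (ES) cells kept in 2i+LIF (3 samples), primordial germ cell-like cells (PGCLCs) made over 6 days from female epiblast-like cells (2 samples), and PGCLCs aggregated for 3 days with somatic cells of female E12.5 gonads (3 samples). Oocytes of secondary follicles were taken at day 21 of such reaggregates, which had been given the estrogen receptor antagonist ICI182780 for part of that time (3 samples). Metaphase II (MII) oocytes followed 11 days of follicle culture with FSH and, at first, BMP15 and GDF9, and then 16 hours of maturation (3 samples). The animal groups were B6D2F1 primordial germ cells (PGCs) taken at E12.5 and sorted by the BVSC transgenes (3 samples), secondary follicle oocytes of ovaries at 8 days post partum, sorted by the same transgenes (3 samples), and MII oocytes of females aged 8 weeks (3 samples). Strain and route cannot be told apart in this design, and the growth protocol names both ES cells and induced pluripotent cells as starting material without saying which samples each gave. The MII libraries were made from 99 to 134 oocytes each and the secondary follicle libraries from 337 to 812, against 5300 to 15000 cells for the ES cells and PGCLCs; no input is given for the E12.5 PGCs. The 6 oocyte markers summed to between 9474 and 14698 FPKM in the 4 oocyte groups and to at most 8.40 in the others. The 6 germ cell markers summed to 565 in day 6 PGCLCs, 803 in reaggregated PGCLCs and 955 for PGCs at E12.5, against 59.2 in ES cells. The 5 ES cell markers summed to 1461 in ES cells and 958 in day 6 PGCLCs.

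Dnmt1 is the maintenance methyltransferase, which copies methylation onto the new strand after replication. Uhrf1 binds hemimethylated CpG sites and, through ubiquitin marks on histone H3, brings Dnmt1 there; its paralog Uhrf2 binds similar DNA but does not replace Uhrf1 in maintenance. Dnmt3a and Dnmt3b methylate DNA that carried no methylation before, and Dnmt3l, which has no catalytic activity of its own, binds both and stimulates them. In the mouse, PGCs lose most of their methylation, and the growing oocyte gains a new pattern, including maternal imprints, that depends on Dnmt3a and Dnmt3l. In the oocyte Dnmt1 is made from an oocyte-specific first exon, and much of its protein and of Uhrf1 is kept in the cytoplasm.

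On the GRCm38 assembly (the sequence also called mm10, to which the authors aligned) all 6 are protein-coding genes in GENCODE release M21. Dnmt1 lies on the minus strand at chr9:20907209-20959888. The others lie on the plus strand: Dnmt3a at chr12:3806007-3914443, Dnmt3b at chr2:153649450-153687730, Dnmt3l at chr10:78041947-78063622, Uhrf1 at chr17:56303321-56323486 and Uhrf2 at chr19:30030513-30093722. RefSeq (GRCm38.p6) lists 13 start sites for them, 3 each for Dnmt1, Dnmt3a and Dnmt3l, 2 for Uhrf1, and 1 each for Dnmt3b and Uhrf2. The 3 Dnmt1 starts span 7265 bases and the 3 Dnmt3l starts 13048 bases. An FPKM value per gene does not show which start a group used.

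The 250 bases upstream of a start are shown for genes whose levels turn with oocyte growth. These are Dnmt1, Uhrf1 and Dnmt3l, which were far higher in secondary follicle oocytes than in germ cells, and Uhrf2, which was lower. They are read 5′ to 3′ on the gene's strand, with CpG dinucleotides in capitals and all else in lower case, and only windows free of exons of the gene are printed. For Dnmt1 these are the windows of start 1 (chr9:20959889-20960138, minus strand), the outermost start, and of start 2 (chr9:20952980-20953229, minus strand). For Uhrf1 it is that of start 2 (chr17:56304063-56304312), for Dnmt3l that of start 2 (chr10:78049592-78049841), and for Uhrf2 that of its only start (chr19:30030263-30030512), all 3 on the plus strand. The window of Dnmt3l start 3, with 3 CpGs, is also free of exons of the gene but is not printed.
Dnmt1 start 1: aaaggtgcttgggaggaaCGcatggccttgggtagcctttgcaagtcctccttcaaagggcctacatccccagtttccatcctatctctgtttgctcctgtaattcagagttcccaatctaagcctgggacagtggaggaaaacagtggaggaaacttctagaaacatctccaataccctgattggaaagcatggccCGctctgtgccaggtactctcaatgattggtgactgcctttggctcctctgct
Dnmt1 start 2: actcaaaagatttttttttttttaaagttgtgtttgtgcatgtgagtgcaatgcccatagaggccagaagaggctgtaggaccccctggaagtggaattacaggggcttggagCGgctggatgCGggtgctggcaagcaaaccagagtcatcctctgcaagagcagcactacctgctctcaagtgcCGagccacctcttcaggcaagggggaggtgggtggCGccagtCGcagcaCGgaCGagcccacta
Uhrf1 start 2: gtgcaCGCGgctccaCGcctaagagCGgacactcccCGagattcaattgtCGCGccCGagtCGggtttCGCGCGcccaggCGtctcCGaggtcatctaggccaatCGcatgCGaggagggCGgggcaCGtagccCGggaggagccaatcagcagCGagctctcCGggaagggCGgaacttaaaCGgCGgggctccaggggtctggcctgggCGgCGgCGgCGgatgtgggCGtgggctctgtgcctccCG
Dnmt3l start 2: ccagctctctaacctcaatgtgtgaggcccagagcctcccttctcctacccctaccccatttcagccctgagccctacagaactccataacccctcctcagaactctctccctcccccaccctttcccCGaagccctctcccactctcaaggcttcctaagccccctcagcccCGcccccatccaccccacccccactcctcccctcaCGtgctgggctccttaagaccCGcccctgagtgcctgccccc
Uhrf2 start 1: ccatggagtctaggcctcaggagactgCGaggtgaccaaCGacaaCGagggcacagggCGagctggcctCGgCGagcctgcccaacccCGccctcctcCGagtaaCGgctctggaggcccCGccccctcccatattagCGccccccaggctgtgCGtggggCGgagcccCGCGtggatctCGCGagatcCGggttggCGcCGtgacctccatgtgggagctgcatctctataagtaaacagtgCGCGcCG

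The windows differ widely in the CpG sites that methylation could reach. Those of Uhrf1 start 2 and Uhrf2 hold 30 and 23 CpGs, against a median of 6 over the 32851 RefSeq windows of 27025 genes. Those of Dnmt1 start 1, Dnmt1 start 2 and Dnmt3l start 2 hold 2, 7 and 4. Uhrf1 and Uhrf2, both CpG-rich in these windows, moved in opposite directions in oocytes. Other starts hold other counts, such as 10 at Uhrf1 start 1 and 26 at Dnmt1 start 3. Which start a group used is not known, and a part of the CpG count in the levels was not tested. An E2F motif was searched as TTTCCCGC, TTTGGCGC, TTTCGCGC or TTTGCCGC on both strands, none of which is a copy of another on the opposite strand. E2F factors drive genes of S phase. Among the 13 windows it was found in 2, as TTTCGCGC 185 bases before Uhrf1 start 2 and, on the opposite strand, 219 bases before Dnmt1 start 3, whose window overlaps an exon and is not printed; 1.86% of all windows hold it. The motif was chosen with these sequences in view, and a match describes letters, not binding.

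Dnmt1, the maintenance enzyme, was the most abundant of the 4 Dnmt transcripts in every group. In culture it stood at 83.0 FPKM for ES cells, 89.4 in day 6 PGCLCs, 87.9 in reaggregated PGCLCs, 723 in cultured secondary follicle oocytes and 334 in cultured MII oocytes. In the animal it had 96.2 FPKM in E12.5 PGCs, 808 in secondary follicle oocytes and 279 in MII oocytes. The 4 groups before oocyte growth thus lay between 83.0 and 96.2 FPKM, and all 4 oocyte groups lay above them. In secondary follicle oocytes Dnmt1 ranked 32 among the 14242 genes in culture and 26 in the animal.

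Uhrf1, which guides Dnmt1 to hemimethylated sites, followed another course before oocyte growth. In culture it stood at 123 FPKM for ES cells, 7.26 in day 6 PGCLCs, 11.1 in reaggregated PGCLCs, 304 in cultured secondary follicle oocytes and 167 in cultured MII oocytes. In the animal it had 11.4 FPKM in E12.5 PGCs, 466 in secondary follicle oocytes and 246 in MII oocytes. In FPKM the 3 germ cell groups were the lowest, ES cells lay between, and oocytes were the highest. Its rank among all genes was 103 in secondary follicle oocytes of culture and 50 in those of the animal. In ES cells it was 440, against 744 in MII oocytes of culture and 795 in those of the animal. By rank, ES cells thus lay above both MII groups. The ratio of Uhrf1 to Dnmt1 FPKM, which scaling a whole group cannot move, was 1.48 in ES cells, 0.0812 in day 6 PGCLCs, 0.126 in reaggregated PGCLCs, and 0.118 for PGCs at E12.5. In oocytes it was 0.421 in culture against 0.577 in the animal at the secondary follicle, and 0.500 against 0.882 at MII.

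Uhrf2, the paralog, ran the other way. In culture it stood at 11.3 FPKM for ES cells, 41.8 in day 6 PGCLCs, 25.2 in reaggregated PGCLCs, 4.59 in cultured secondary follicle oocytes and 2.14 in cultured MII oocytes. In the animal it had 27.4 FPKM in E12.5 PGCs, 4.07 in secondary follicle oocytes and 3.58 in MII oocytes. The germ cell groups are the only ones in which Uhrf2 exceeded Uhrf1, by 5.76 times in day 6 PGCLCs, 2.27 times in reaggregated PGCLCs and 2.40 times for PGCs at E12.5. Uhrf1 exceeded Uhrf2 by 10.9 times in ES cells and by 66.4 to 115 times in the oocyte groups.

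**Figure D1:**
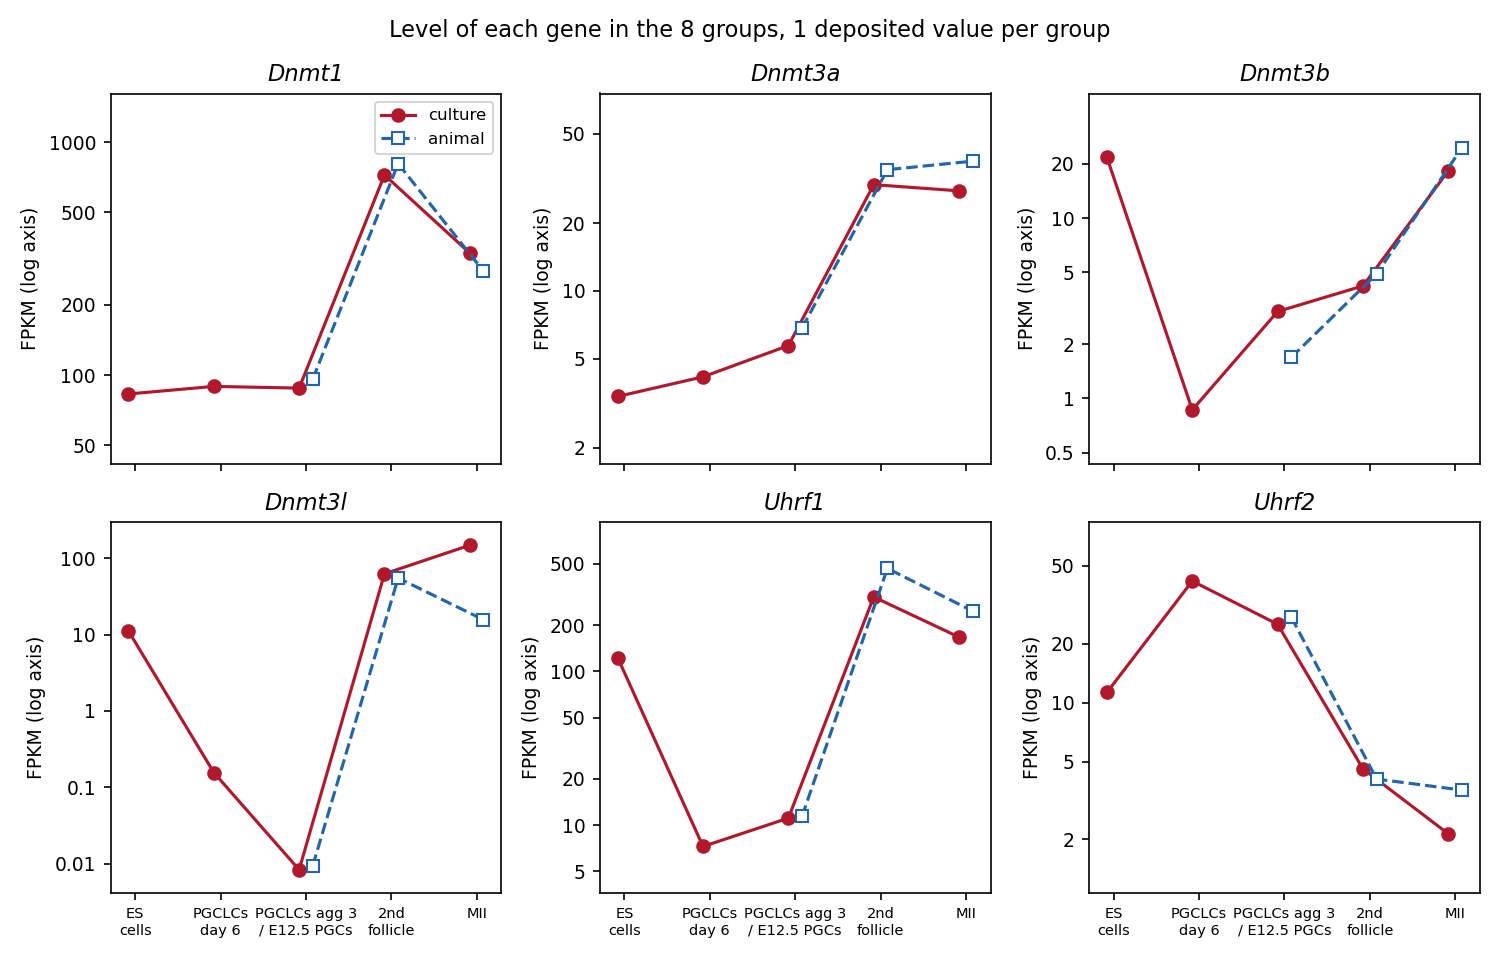
FPKM of each of the 6 genes (vertical axes, logarithmic) against stage; filled circles are the 5 culture groups, open squares the 3 animal groups, each point is the 1 deposited value of a group, and lines only join groups of a route. Culture and animal points lie close together at the germ cell and secondary follicle stages, and part for Dnmt3l at MII, where culture has 147 and the animal 15.6 FPKM.

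Dnmt3a, the de novo enzyme that oocytes depend on, stood at 3.39 FPKM for ES cells, 4.14 in day 6 PGCLCs, 5.71 in reaggregated PGCLCs, 29.7 in cultured secondary follicle oocytes and 27.9 in cultured MII oocytes. In the animal it had 6.83 FPKM in E12.5 PGCs, 34.6 in secondary follicle oocytes and 37.8 in MII oocytes. All 4 oocyte groups lay above all others. Its antisense gene Dnmt3aos, which overlaps it and was read from directional libraries, reached at most 0.643 FPKM.

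Dnmt3b, the second de novo enzyme, was high at both ends of the culture series. Its level was 21.7 FPKM for ES cells, 0.864 in day 6 PGCLCs, 3.04 in reaggregated PGCLCs, 4.21 in cultured secondary follicle oocytes and 18.3 in cultured MII oocytes. In the animal it had 1.69 FPKM in E12.5 PGCs, 4.91 in secondary follicle oocytes and 24.6 in MII oocytes. The ratio of Dnmt3b to Dnmt3a was 6.41 in ES cells, and in every other group Dnmt3a was the higher of the pair, with a ratio of 0.142 in the secondary follicle oocytes of both routes, and at MII 0.657 in culture against 0.651 in the animal. No row was found for Dnmt3c or under the pseudogene names looked up for Dnmt3a, Dnmt3b and Dnmt3l. How alike their sequences are was not measured, and reads shared with any of them cannot be told from those of the gene.

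Dnmt3l, the cofactor, had the widest range of the 6. Its level was 11.1 FPKM for ES cells, 0.157 in day 6 PGCLCs, 0.00840 in reaggregated PGCLCs, 62.1 in cultured secondary follicle oocytes and 147 in cultured MII oocytes. In the animal it had 0.00949 FPKM in E12.5 PGCs, 54.7 in secondary follicle oocytes and 15.6 in MII oocytes. With no depth known, the values near 0 in the germ cell groups give no fold. The ratio of Dnmt3l to Dnmt3a was 2.09 in culture against 1.58 in the animal at the secondary follicle, and 5.28 against 0.412 at MII.

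The makeup of the 4 Dnmt transcripts within a group is likewise free of scaling between groups. Dnmt1 made up 69.6% of their summed FPKM in ES cells, 94.5% in day 6 PGCLCs, 91.0% in reaggregated PGCLCs, and 91.9% for PGCs at E12.5. At the secondary follicle it made up 88.3% in culture against 89.6% in the animal. At MII it made up 63.3% in culture against 78.2% in the animal, and Dnmt3l 27.9% against 4.36%. Dnmt3b held 18.2% in ES cells and no more than 6.87% elsewhere.

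**Figure D2:**
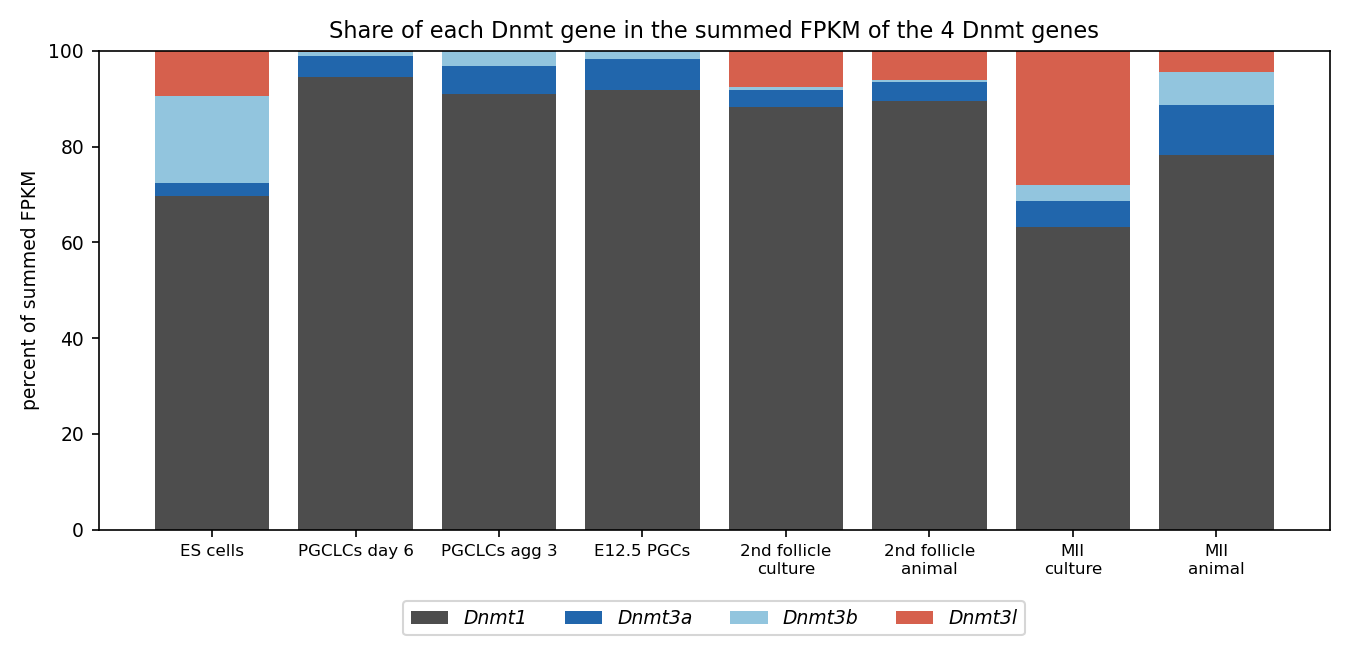
Share of each of the 4 Dnmt genes in their summed FPKM (percent, stacked bars) in each of the 8 groups. Dnmt1 fills most of every bar, Dnmt3b is widest in ES cells (18.2%), and Dnmt3l is widest in MII oocytes from culture (27.9%), against 4.36% in those from the animal.

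Groups were set against each other on the log2(FPKM + 1) scale, on which a difference of 1 was taken as 2-fold; this scale understates the change of low genes. Several of the 9 comparisons share a group, so their values only stand side by side. These are bulk samples, in which fewer cells of a type and less RNA per cell cannot be told apart. The question of the first 3 comparisons is how cells made in culture stand against their counterparts from the animal. Reaggregated PGCLCs and E12.5 PGCs differed by less than 2-fold in all 6 genes, where 2.18% of all genes were past 2-fold (1.39% higher and 0.786% lower). The differences, culture minus animal, were -0.13 for Dnmt1, -0.22 for Dnmt3a, 0.59 for Dnmt3b, -0.03 for Uhrf1 and -0.12 for Uhrf2. Dnmt3l was near 0 FPKM in both. With so few genes past 2-fold in all, the count of 0 among 6 says little about these genes. Beside it, the 8 granulosa and cumulus markers summed to 11.4 FPKM in reaggregated PGCLCs, against 2.59 in E12.5 PGCs, and 2 of the 8 were past 2-fold higher and 0 lower. The 7 stroma markers summed to 25.3 and 28.7 FPKM, mostly Vim (17.0 and 27.5), but of the 5 that passed the filter 3 were past 2-fold higher in reaggregated PGCLCs and 0 lower: Gata4 (2.31 against 0.319 FPKM), Col1a1 (1.35 against 0.0390) and Col3a1 (2.42 against 0.0906). Their part was not tested.

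Secondary follicle oocytes from culture and from the animal also differed by less than 2-fold in all 6 genes, where 2.4% of all genes were past 2-fold (1.74% higher and 0.66% lower). Uhrf1 stood furthest apart, at 304 FPKM in culture and 466 in the animal, a difference of -0.61 that 96.7% of all genes exceeded. Those of Dnmt1, Dnmt3a and Dnmt3b were -0.16, -0.21 and -0.18, and those of Dnmt3l and Uhrf2 0.18 and 0.14. The granulosa and cumulus markers summed to 6.90 FPKM in culture and 6.76 in the animal.

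MII oocytes differed in 1 of the 6 genes, where 21.9% of all genes were past 2-fold (12.4% higher and 9.45% lower). Dnmt3l had 147 FPKM in culture, against 15.6 in the animal, a difference of 3.16, and 0.344% of genes had a higher one; over the 7 alternative settings it ranged from 2.60 to 3.72. Dnmt1 had a difference of 0.26, Dnmt3a -0.43, Dnmt3b -0.41, Uhrf1 -0.56 and Uhrf2 -0.54, all within 2-fold; scaled to equal sums, those of Dnmt3a, Dnmt3b and Uhrf1 were above 0 (0.21, 0.22 and 0.10). The FPKM columns of the MII groups summed to 616260 in culture and 975407 in the animal, against 268720 to 349772 in the other groups. Other measures also moved between the MII groups. Of the 6 oocyte markers 3 were past 2-fold higher in culture and 0 lower. Those were the egg coat genes Zp1, Zp2 and Zp3, with 383, 483 and 739 FPKM in culture and 35.6, 37.8 and 79.8 in the animal. The other oocyte markers were within 2-fold on this scale. Gdf9 was lower in culture (6768 against 11132 FPKM), while Bmp15 (1098 against 749) and Figla (4.37 against 1.76) were higher. The 8 granulosa and cumulus markers summed to 59.0 FPKM in culture and 50.1 in the animal, with 2 of 8 past 2-fold higher in culture and 0 lower. Those were Inha (19.3 against 2.55 FPKM) and Inhba (5.89 against 2.25), while Cyp19a1 had 27.1 against 42.2 FPKM and Amh and Foxl2 were below 1 FPKM in both. Among 5 stroma markers 1 was past 2-fold higher, Vim, with 14.9 against 2.24 FPKM, and 0 lower. The part of these in the Dnmt3l difference was not tested, and in poly(A) libraries less RNA and a shorter poly(A) tail cannot be told apart.

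**Figure D3:**
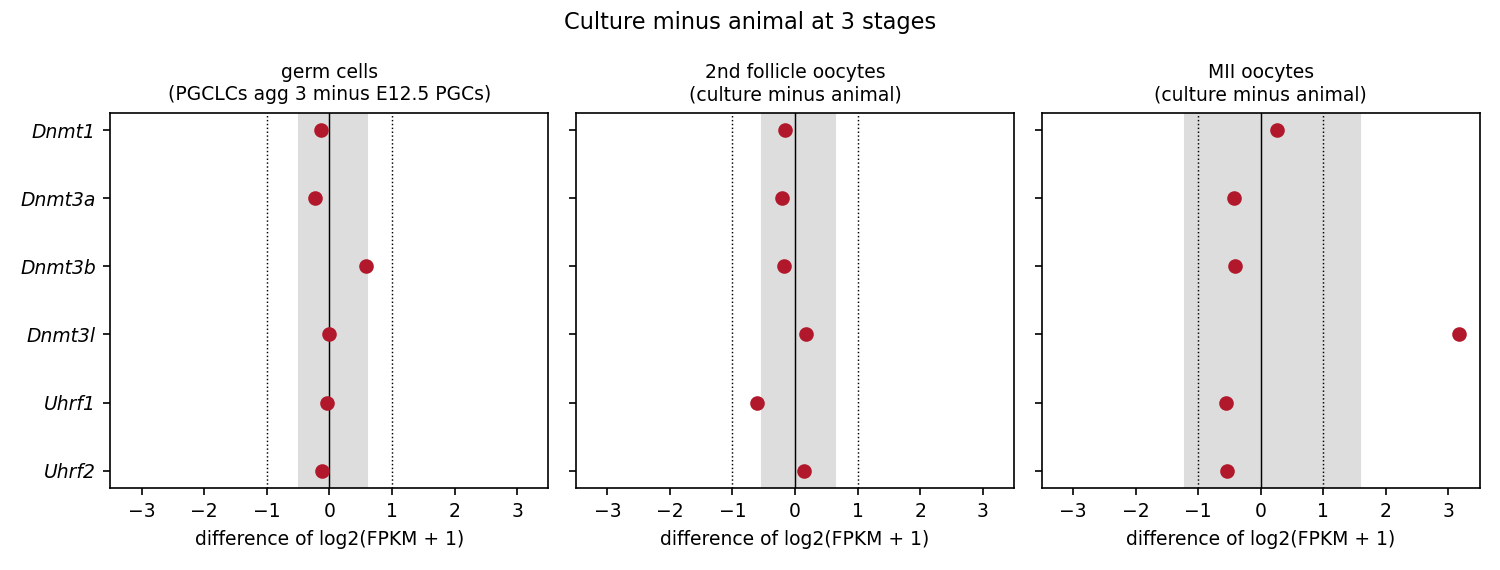
Difference of log2(FPKM + 1), culture minus animal (horizontal axes), for the 6 genes at 3 stages. The grey band spans the central 90% of all 14242 genes, the solid line marks 0 and the dotted lines 2-fold; only Dnmt3l at MII (3.16) lies past 2-fold, and the band is widest at MII.

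The next comparisons follow the stages. From ES cells to day 6 PGCLCs, 4 of the 6 genes were past 2-fold, where 21.6% of all genes were. The epiblast-like cells from which these PGCLCs were made form no group here, so levels at that stage are unknown. Uhrf1, Dnmt3b and Dnmt3l fell, by 3.90, 3.61 and 3.39 on the log2 scale (12% of all genes fell), and Uhrf2 rose by 1.80 (9.63% of all genes rose). Dnmt1 and Dnmt3a stayed within 2-fold, at 0.11 and 0.23. The sizes of the falls of Dnmt3b and Dnmt3l depended on the pseudocount, from -4.50 to -2.19 and from -5.45 to -1.65 over the 7 alternative settings.

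From day 6 PGCLCs to reaggregated PGCLCs 1 gene passed 2-fold upward and 0 downward, where 10.2% of all genes passed it (5.15% upward and 5.04% downward). Dnmt3b had 3.04 FPKM in reaggregated and 0.864 in day 6 PGCLCs, a difference of 1.11 that fell below 2-fold with a pseudocount of 5 (0.45) and with quantile normalization (0.89). The others lay between -0.71 (Uhrf2) and 0.55 (Uhrf1).

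Oocyte growth brought the broadest turn of the machinery, against a background in which about as many genes were past 2-fold as were not. In culture, 5 of the 6 genes were past 2-fold between secondary follicle oocytes and reaggregated PGCLCs, 4 higher and 1 lower, where 51.6% of all genes were (25.2% higher and 26.4% lower). In the animal all 6 were, 5 higher and 1 lower, between secondary follicle oocytes and E12.5 PGCs, where 50.2% of all genes were (24.3% higher and 25.9% lower). The 2 routes share no samples here. Dnmt3l rose by 5.97 in culture and 5.79 in the animal, Uhrf1 by 4.66 and 5.24, Dnmt1 by 3.02 and 3.06, and Dnmt3a by 2.19 and 2.18. Uhrf2 fell by 2.23 and 2.48. Over the alternative settings the rise of Dnmt3l ran from 3.74 to 9.17 in culture and from 3.58 to 8.97 in the animal, since its germ cell values were near 0. Dnmt3b differed by 0.37 in culture and by 1.14 in the animal, the second of which was within 2-fold with a pseudocount of 5 (0.57) and with equal sums (0.96). The median over the 6 genes was 2.61 in culture and 2.62 in the animal, and over all genes -0.09 in both.

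From the secondary follicle to MII, 3 of 6 genes were past 2-fold in culture, where 52.5% of all genes were (23.9% higher and 28.6% lower), and 3 in the animal, where 61.1% were (28% higher and 33.1% lower). Dnmt1 fell by 1.11 in culture and 1.53 in the animal, values that reached -2.28 and -3.39 among the alternative settings, and Dnmt3b rose by 1.89 and 2.11, the last of which was 0.75 with equal sums. Uhrf1 had differences of -0.86 and -0.92. They were past 2-fold with equal sums (-1.68 and -2.39) and with quantile normalization (-1.98 and -2.79). Uhrf2 had -0.83 and -0.15. The culture value was past 2-fold with a pseudocount of 0.1 (-1.07) and with equal sums (-1.42), and the animal value was 0.72 with quantile normalization and -1.23 with equal sums. Dnmt3a had -0.09 in culture and 0.12 in the animal, a value that turned to -1.30 with equal sums.

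Dnmt3l parted between the routes in this step, with a difference of 1.23 in culture and -1.75 in the animal. Of all genes, 0.477% had a larger excess of the culture step over the animal step than its 2.98. A rise of at least 2-fold in culture beside a fall of at least 2-fold in the animal was met by 6 genes (0.0421%): Cldn25, Dnmt3l, Flna, Ptgds, Tmsb15b2 and Tuba1a, a count made after their values were seen. The rise in culture was within 2-fold with equal sums (0.42) and with quantile normalization (0.38), while the fall in the animal held under all 7 alternative settings, from -3.12 to -1.54. The level in MII oocytes was past 2-fold higher in culture than in the animal under each of them.

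The partners of maintenance did not follow Dnmt1 and Uhrf1 as a group. Of 9 of them, 1 rose and 4 fell in culture from germ cells to secondary follicle oocytes (25.2% and 26.4% of all genes), with a median of -0.87, and 1 rose and 5 fell in the animal (24.3% and 25.9%), with a median of -1.05. Hells, a chromatin remodeller needed for methylation, had 19.0 FPKM in cultured secondary follicle oocytes against 139 in reaggregated PGCLCs, and 22.2 in secondary follicle oocytes of the animal against 195 in E12.5 PGCs. Lig1, the replicative DNA ligase to which Uhrf1 binds, had 21.6 against 83.9 FPKM in culture and 24.3 against 111 in the animal. The exception was Chaf1a, a subunit of the histone chaperone CAF-1, with 165 against 27.9 FPKM in culture and 153 against 34.5 in the animal, while its partner Chaf1b had 12.1 against 20.0 and 11.2 against 20.1 FPKM. Cdca7, which works with Hells, also fell in both routes, as did Pclaf, a PCNA-binding factor of low level whose fall was within 2-fold with a pseudocount of 5 (-0.51 and -0.80). Pcna had 39.8 against 73.5 FPKM in culture and 42.1 against 88.3 in the animal, where its fall of 1.05 was within 2-fold with a pseudocount of 5 (-0.99) and with median centring (-0.96). Usp7, the deubiquitinase that binds both Dnmt1 and Uhrf1, and Cdca7l, a relative of Cdca7, stayed within 2-fold. Of 18 S-phase genes, 2 rose and 10 fell in culture (median -1.17) and 1 rose and 10 fell in the animal (median -1.38).

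Enzymes that shape chromatin for de novo methylation were mixed over the same step, with 1 of 7 up and 2 down in culture, and 1 up and 3 down in the animal, near the shares of all genes (25.2% up and 26.4% down in culture, 24.3% and 25.9% in the animal); with equal sums 5 of 7 were past 2-fold in culture. The riser was Kdm1b, a histone H3 lysine 4 demethylase needed for maternal imprints, with 202 FPKM in cultured secondary follicle oocytes against 10.6 in reaggregated PGCLCs, and 315 in secondary follicle oocytes of the animal against 15.2 in E12.5 PGCs. Kdm1a, its paralog, fell, with 17.9 against 52.5 FPKM in culture and 18.2 against 57.5 in the animal. At MII, Setd2, which places the histone mark that guides methylation over transcribed regions, had 38.1 FPKM in culture against 141 in the animal, the largest fall of the 7 between the MII groups (-1.86).

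Of 7 genes known to act on the 6, 3 were higher and 0 lower in day 6 PGCLCs than in ES cells (9.63% and 12% of all genes), and 5 were past 2-fold with quantile normalization. Dppa3, which removes Uhrf1 from chromatin, had 228 against 17.2 FPKM, Prdm1 39.8 against 4.31, and Tfap2c 97.8 against 26.4. Prdm14, which represses Dnmt3b and Dnmt3l in ES cells, had 40.3 against 21.4 FPKM, within 2-fold at 0.88, and its partner Cbfa2t2 26.3 against 14.5, at 0.82. In secondary follicle oocytes 5 of 7 fell against germ cells in each route (26.4% of all genes in culture and 25.9% in the animal) and only Dppa3 rose (25.2% and 24.3%). Prdm14 was then at 0.0103 FPKM in culture against 17.6 in reaggregated PGCLCs, and at 0.0128 in the animal against 17.3 in E12.5 PGCs. Dppa3 had 434 against 210 and 452 against 176 FPKM, the first within 2-fold with equal sums (0.67) and quantile normalization (0.84). Its transcript was abundant in germ cells, where that of Uhrf1 was low, and in oocytes, where that of Uhrf1 was high. A part of Dppa3 in the Uhrf1 level was not tested. The histone methyltransferases Ehmt1 and Ehmt2 had 7.41 and 17.6 FPKM in cultured secondary follicle oocytes against 12.0 and 44.6 in reaggregated PGCLCs. Ehmt1 was within 2-fold (-0.63 in culture and -0.76 in the animal), while Ehmt2 was past it (-1.29 and -1.45).

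The oxidases of methylcytosine also changed over with oocyte growth. Tet1 had 0.388 FPKM in cultured secondary follicle oocytes against 18.0 in reaggregated PGCLCs, and 0.202 in those of the animal against 17.4 in E12.5 PGCs. Tet2 had 0.167 against 5.67 and 0.234 against 6.22 FPKM. Tet3 had 25.4 against 0.797 and 37.8 against 0.671 FPKM, and reached 847 FPKM in MII oocytes from culture and 1937 in those from the animal. The row of Tdg, a glycosylase that removes oxidised methylcytosine, held 0.400 FPKM or less in every group. Reads shared between Tdg and other places in the genome were not looked at. Its low values therefore do not show that the gene is off.

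**Figure D4:**
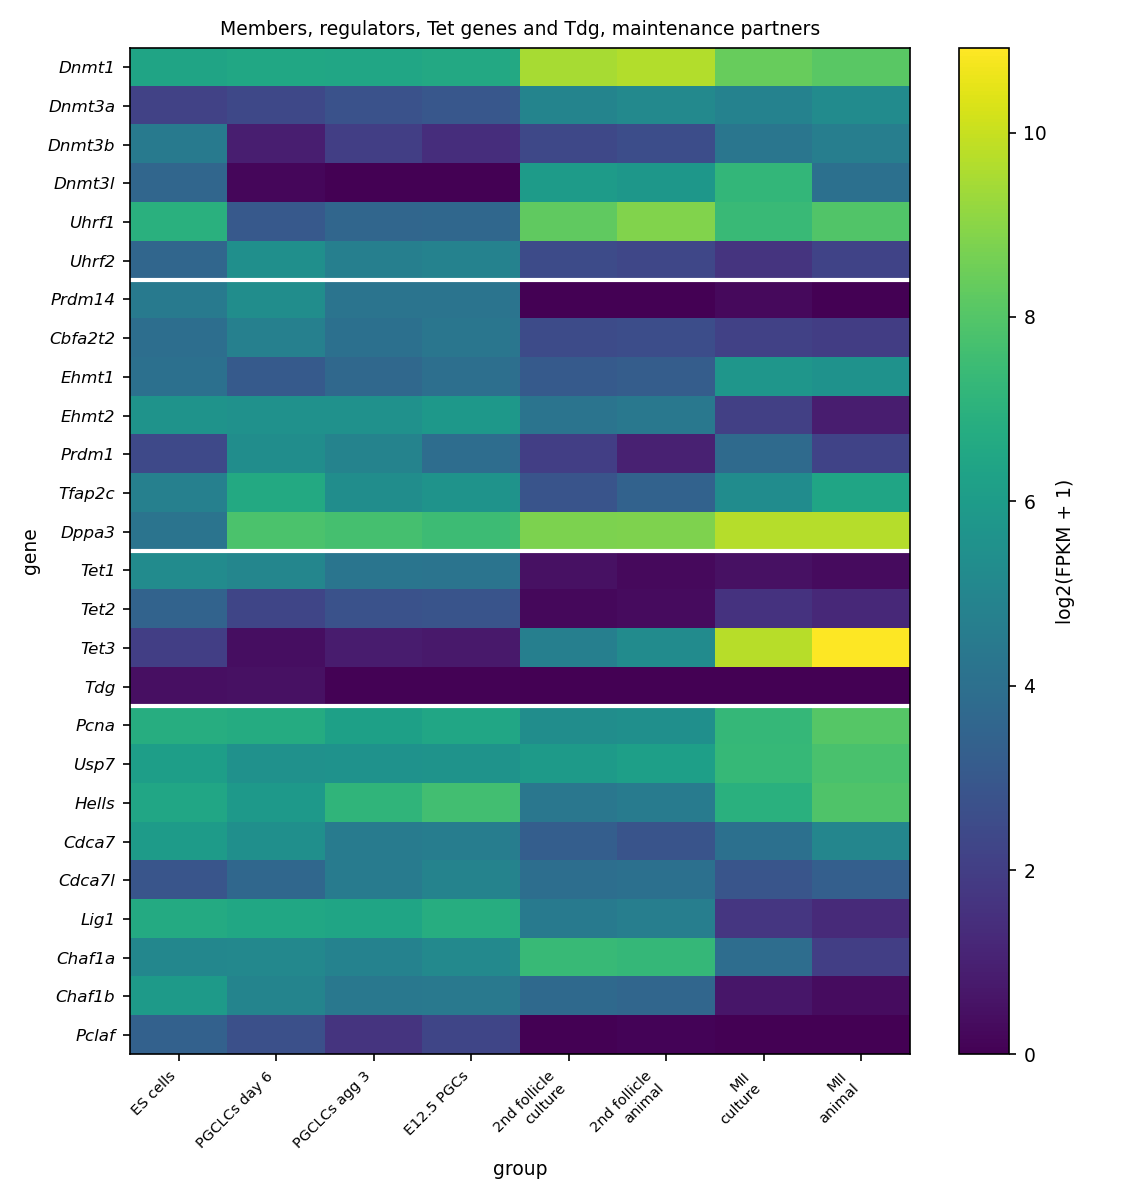
log2(FPKM + 1) (colour scale) of the 6 genes, 7 genes that act on them, the Tet genes and Tdg, and 9 maintenance partners (rows) in the 8 groups (columns). Dnmt1, Uhrf1, Dnmt3l and Tet3 are brighter in all 4 oocyte columns than in the germ cell columns, Chaf1a in the secondary follicle columns alone, while Uhrf2, Prdm14, Tet1, Hells and Lig1 darken from the germ cell to the secondary follicle columns.

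Genes of the germ line that are silenced by promoter methylation in other cells were read as a list of 13. From ES cells to day 6 PGCLCs 7 rose and 1 fell (9.63% and 12% of all genes), with a median of 1.11 (all genes 0.00021); with a pseudocount of 5 only 4 were past 2-fold. From day 6 to reaggregated PGCLCs 12 rose and 0 fell (5.15% and 5.04% of all genes), with a median of 2.16. Among the risers Sycp1 (0.95), Tdrd1 (0.53), Tex11 (0.56) and Brdt (0.89) were within 2-fold with a pseudocount of 5. Dazl, an RNA-binding factor of germ cells, had 365 FPKM in reaggregated PGCLCs against 30.1 in day 6 PGCLCs, and Ddx4, a germ cell helicase, 62.1 against 13.1. Reaggregated PGCLCs were lower than E12.5 PGCs in 7 of the 13 and higher in 0 (0.786% and 1.39% of all genes), with a median of -1.11. Of these 7, Tex11 was within 2-fold with a pseudocount of 5 (-0.74). The 6 methylation genes lay within 2-fold between these 2 groups, and a link between them and the 13 was not tested. No methylation was measured in these data.

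The genes whose pattern over the 8 groups was most like that of a gene of the 6 were found by Pearson's r of log2(FPKM + 1) among 8890 genes; the 8 points share a stage series, and no p is given. For Dnmt1 these were Slc9a3 (r = 0.998), Nlrp14, Trim60, Padi6 and Svopl, of which Nlrp14 and Padi6 are oocyte genes. For Uhrf1 the first was Zfp57 (0.990), the zinc finger protein that protects imprints, followed by Bcar3, Emp2, Zfhx3 and Taf12. Zfp57 stood at 185 FPKM for ES cells, 1.15 in day 6 PGCLCs, 1.78 in reaggregated PGCLCs, 928 in cultured secondary follicle oocytes and 385 in cultured MII oocytes, and 1.32, 866 and 260.1 in the 3 animal groups from E12.5 to MII. For Dnmt3l the first was Tubb2a (0.988), for Uhrf2 Hacl1 (0.988), for Dnmt3a Marveld2 (0.997) and for Dnmt3b Pcbp2 (0.972). Among the 6 themselves r ran from -0.951 (Dnmt3l and Uhrf2) to 0.920 (Dnmt3l and Uhrf1), and Dnmt1 and Dnmt3a had 0.913.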

How the data were processed

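Per the labels' protocols, poly(A) RNA was turned into directional libraries and read on a HiSeq2000. Per the submitters' processing notes, TopHat2, Bowtie2 2.0.13, Cufflinks and Cuffdiff 2.2.1 were used with mm10. The authors deposited FPKM values, 1 per gene and group, so samples of a group, labelled as 2 or 3 replicates, are not shown separately. No test, error or replicate check could be run, and the planned fallback without a test was used. Depth is unknown and cannot be recovered.

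Differences were taken as log2(FPKM + 1), over 14242 genes with at least 1 FPKM in at least 1 group, and called at 2-fold. All 9 comparisons were computed on the whole table. The 14 lists hold 107 symbols, of which 105 were found as written and 2 by an older symbol. The 6 genes and all lists were chosen with earlier results of these data known. Named from the lists were the up to 3 genes past 2-fold with the largest difference in a comparison and at least 10 FPKM in the higher group, plus all maintenance partners, regulators and Tet genes with Tdg; others named were chosen after their values were seen. Likeness used genes with at least 10 FPKM in at least 1 group and a range of at least 1, without predicted or clone names. Alternatives were pseudocounts of 0.1 and 5, no filter or one of 5 FPKM, median centring, quantile normalization and equal sums. The calling of differences was checked on simulated data in which only genes of at least 10 FPKM were shifted. Values near 0 were not covered by that check. Promoter sequences are RefSeq's, with all 6 genes matched. Python 3.11.15, pandas 2.3.3, NumPy 2.4.6 and matplotlib 3.10.9 were used.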

Additional observations from a re-analysis of the deposited data

How the results depend on the processing

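Each of the 9 counts of the 6 genes past 2-fold was recomputed under 7 alternatives, and 59 of 63 values were within 1.5 times of those reported. For reaggregated against day 6 PGCLCs, 1 as reported, the count was 2 with a pseudocount of 0.1, 0 with a pseudocount of 5 and 0 with quantile normalization. For MII against secondary follicle oocytes of the animal, 3 as reported, it was 5 with equal sums. Of 378 differences of single genes, 362 kept their side of 2-fold and, where past it, their direction; 8 passed 2-fold newly, 7 no longer did and 1 reversed, that of Dnmt3a in the same MII step (-1.30 with equal sums, 0.12 as reported). A further 10 changed sign within 2-fold. Equal sums moved the median of all genes to -0.50 and -0.74 in the MII steps of culture and animal, to -0.38 and -0.34 in the growth steps and to 0.23 between the MII groups, where the share of genes higher and lower was then 16.7% and 1.18%, against 12.4% and 9.45% as reported. In the MII steps that split was 15.0% and 39.5% in culture (23.9% and 28.6% as reported) and 15.2% and 45.6% in the animal (28% and 33.1%). The count of genes moving like Dnmt3l in the MII steps was 54 with a pseudocount of 0.1 and 2 with a pseudocount of 5, both with Dnmt3l, and 8 with equal sums and 5 with quantile normalization, both without it. No paired analysis was possible because the table holds 1 value per group and no replicate numbers, and no replicate could be left out for the same reason. Depth limits most the values of Dnmt3l and Dnmt3b near or below 1 FPKM.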

Other observations

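Of 9 genes of the methionine and folate cycles, which supply the methyl donor, 1 rose and 4 fell in culture (25.2% and 26.4% of all genes) between secondary follicle oocytes and reaggregated PGCLCs (median -0.98), and 1 rose and 5 fell in the animal (24.3% and 25.9%) between secondary follicle oocytes and E12.5 PGCs (median -1.15). The riser was Mat2b, the regulatory subunit of methionine adenosyltransferase, with 419 against 34.6 FPKM in culture and 427 against 36.8 in the animal, while its catalytic partner Mat2a had 24.4 against 70.4 and 25.8 against 61.0 FPKM. Mat2b had 1795 FPKM in MII oocytes from culture and 2634 in those from the animal. Shmt1, of the folate cycle, had 7.83 against 62.1 FPKM in culture and 7.91 against 59.9 in the animal over the growth step.

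Readers of methylated CpG and their relatives, read as 1 list, were mostly within 2-fold over that step. Of 7, 0 were up and 2 down in culture (25.2% and 26.4% of all genes). In the animal 0 were up and 1 down (24.3% and 25.9%). With equal sums 4 of 7 were past 2-fold in each route. Mbd3, a relative of the readers, was the most abundant of the list at this stage. It had 96.7 FPKM in cultured secondary follicle oocytes against 113 in reaggregated PGCLCs. In the animal it had 99.4 FPKM in secondary follicle oocytes against 115 in E12.5 PGCs. From the secondary follicle to MII it fell, to 27.0 FPKM in culture, against 96.7, and to 20.5 FPKM in the animal, against 99.4.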
